A study of Homo sapiens with 8 samples.

Results

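The TRIM family, the genes named TRIM followed by a number, was followed in MCF10A cells with and without p53 after treatment with the DNA-damaging drug doxorubicin, known as adriamycin or ADR. All protein coding genes with such a symbol were taken and pseudogenes were left out, which gave 75 genes. Of these, 64 had a probe that could be named by its transcript, among 20296 such genes on the array, and 11 (TRIM16, TRIM43B, TRIM49B, TRIM49C, TRIM49D2, TRIM51G, TRIM64B, TRIM64C, TRIM73, TRIM74 and TRIM75) had none and are named only. Genes were selected on their symbol, but the family itself was chosen by the log2 differences between the treated genotypes that were already known for some members, among them TRIM22. Its values are therefore a description and were not tested.

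MCF10A cells are human breast epithelial cells that grow without limit in culture but form no tumours. The p53+/+ cells and a p53−/− derivative were plated, left untreated (0 h) or exposed to ADR for 2 h, at 0.5 µg/ml according to the labels, and harvested at 12, 24 and 48 h. Total RNA of each genotype and time was hybridised in a single colour to 1 Agilent SurePrint G3 Human GE array, 8 arrays in all. The sources used here do not say how the p53−/− line was made or whether it is 1 clone, and the methods of the study give another dose than the labels. A level is the log2 processed signal relative to the 75th percentile of its array, and it can be compared between arrays for 1 probe but not between probes. Since there is 1 array per condition, no value has a replicate error. The technical SD of a log2 difference, from probes printed in 10 spots, stands beside some of the values and covers differences between spots only. A gene was called higher or lower when its level differed at least 2-fold, that is, by 1 on the log2 scale, with the brighter array well above background. Where the dimmer array was not, its value was replaced by the lowest level well above background there if that was higher, and the difference is then a lower bound. A level is an average over a culture, in which fewer cells of a kind and less RNA per cell cannot be told apart.

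The arrays were checked against their labels first. Of 26 p53 target genes, 25 were higher in p53+/+ than in p53−/− cells at all 3 treated times, whereas at 0 h their median difference was 0.15, with 4 genes higher and 1 lower. Since the array labelled p53+/+ 0 h thus read close to the p53−/− 0 h array for these genes, the changes measured from it that the results turn on are also given against the p53−/− 0 h array. Of 10 spike-in probes, 6 were well above background on 7 arrays and 0 on the p53+/+ 48 h array. All arrays lay on 1 slide with the genotypes in separate columns, so slide position and genotype cannot be told apart. The 75th percentile of the signal was 661 to 1015 on the p53+/+ and 879 to 1199 on the p53−/− arrays, and 49.8 to 62.9% of probes were well above background. Of 10 basal mammary epithelial markers, 9 gave a signal well above background on each array and TP63 did so on 3. Of 6 luminal mammary markers, 4 (GATA3, FOXA1, KRT8 and KRT18) also did so on each array. Their levels included −4.51 to −1.95 for FOXA1 and 5.05 to 6.33 for KRT18. Of 5 leukocyte markers, 3 (PTPRC, CD68 and CD14) were above background throughout, and CD3E was on 1 array. PTPRC had levels of −4.27 to −3.68, CD68 of −0.51 to 0.85 and CD14 of 0.78 to 2.59. These markers thus do not set the cultures apart as purely basal.

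TRIM proteins carry a RING domain, B-box zinc fingers and a coiled coil, and most of them act as ubiquitin ligases, the enzymes that attach ubiquitin to a substrate. The end of the protein, often a SPRY domain, binds the substrate and divides the family into classes. Interferons induce a part of the family, whose products restrict viruses or tune innate immune signalling. Another part acts on p53 itself, by tagging it for degradation, stabilising it or holding it in the cytoplasm, and TRIM22 is a known p53 target gene. TRIM29, which lacks the RING domain, is abundant in basal and stratified epithelia.

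Promoters of 4 members are shown from RefSeq sequence (GRCh38.p14, 250 bases before to 50 after the start of the gene, written 5′ to 3′ on the strand of the gene). TRIM5, TRIM21 and TRIM38 were called higher in treated p53+/+ than in treated p53−/− cells at 12, 24 and 48 h, and TRIM2 at 12 and 24 h only. TRIM22 and TRIM29 were also called at all of these times, but no promoter of either was available here. Capitals mark the core of an interferon-stimulated response element, GAAANNGAAA on either strand, and the p53 decamer motif, the 10-base unit that p53 binds in pairs. The regions are chr11:5685025-5685324 (minus strand) for TRIM5, chr6:25962552-25962851 (plus strand) for TRIM38, chr11:4393653-4393952 (minus strand) for TRIM21 and chr4:153151913-153152212 (plus strand) for TRIM2.
TRIM5: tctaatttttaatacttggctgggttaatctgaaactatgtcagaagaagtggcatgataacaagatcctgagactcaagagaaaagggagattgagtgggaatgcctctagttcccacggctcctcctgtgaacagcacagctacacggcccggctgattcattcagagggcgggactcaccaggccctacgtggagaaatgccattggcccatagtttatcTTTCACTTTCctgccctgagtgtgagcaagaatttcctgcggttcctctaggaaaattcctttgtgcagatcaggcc
TRIM38: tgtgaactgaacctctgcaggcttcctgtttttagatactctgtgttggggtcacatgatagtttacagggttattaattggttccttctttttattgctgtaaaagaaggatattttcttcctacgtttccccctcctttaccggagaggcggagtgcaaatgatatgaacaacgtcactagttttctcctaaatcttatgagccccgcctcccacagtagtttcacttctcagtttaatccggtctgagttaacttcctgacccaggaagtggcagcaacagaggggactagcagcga
TRIM21: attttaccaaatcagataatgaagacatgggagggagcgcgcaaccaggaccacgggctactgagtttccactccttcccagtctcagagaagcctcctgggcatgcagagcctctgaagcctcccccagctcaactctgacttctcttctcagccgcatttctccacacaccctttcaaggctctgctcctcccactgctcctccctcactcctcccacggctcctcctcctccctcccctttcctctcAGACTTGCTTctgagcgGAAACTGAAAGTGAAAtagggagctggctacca
TRIM2: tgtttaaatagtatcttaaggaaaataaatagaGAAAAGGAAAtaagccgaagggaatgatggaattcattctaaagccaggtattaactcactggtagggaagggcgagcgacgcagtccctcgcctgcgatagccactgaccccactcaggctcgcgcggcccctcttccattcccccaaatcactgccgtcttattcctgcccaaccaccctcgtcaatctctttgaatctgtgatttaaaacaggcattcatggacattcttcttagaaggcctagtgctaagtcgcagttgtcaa

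In TRIM5 the interferon core lies on the minus strand and its first printed base is 27 bases before the start. TRIM21 has a p53 decamer that begins at the start base and 2 overlapping interferon cores that begin 17 and 23 bases after it. In TRIM2 the core begins 217 bases before the start, and neither motif is in the window of TRIM38. Over the 50 members with a promoter in the table, the interferon core was present in 8 (16.0%), against 3.648% of 27305 promoters of the same length (300 bases). The 8 were TRIM2, TRIM5, TRIM14, TRIM21, TRIM26, TRIM34, TRIM44 and TRIM69, and 6 of the 9 members known as interferon-induced that have a promoter there were among them, against 2 of the 41 other members. The p53 decamer was present in 6 of 50 members (12.0%), against 6.541% of all promoters. The 6 were TRIM10, TRIM21, TRIM48, TRIM51, TRIM64 and TRIM71. Of these, only TRIM21 was called between the treated genotypes at all times, and TRIM48, TRIM51, TRIM64 and TRIM71 were not well above background on any array. A match of these letters is a description and does not show that a factor binds.

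Between the treated genotypes, 5 of the 64 TRIM genes (TRIM5, TRIM21, TRIM22, TRIM29 and TRIM38) were at least 2-fold higher in p53+/+ than in p53−/− cells at 12, 24 and 48 h, and 0 were lower at all 3 times. That is 7.81% of the members, and 4.89% of all 20296 genes were higher and 3.83% lower. The median log2 difference of the members at 12, 24 and 48 h was 0.50, 0.22 and 0.30, and that of all genes was 0.22, 0.10 and 0.24. These medians use measured values without the bound and include the 16 members not well above background on any array. For such a member the value compares background signals only, as in TRIM60 with 0.79, 1.11 and 1.11, so the medians do not show a shift of the family. The split depended on how arrays were scaled. It was 4 higher and 2 lower with quantile normalization, 5 higher and 4 lower with each array centred on its median, and 2 higher (TRIM22 and TRIM29) and 5 lower without scaling.

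TRIM22, an interferon-inducible ubiquitin ligase that restricts viruses, showed the widest gap. In treated p53+/+ cells its level was 1.99, 2.61 and 2.19 at 12, 24 and 48 h. On the other 5 arrays it was not well above background, with measured values of −6.84 on the 1 labelled p53+/+ 0 h and of −6.26, −7.44, −7.07 and −5.56 on the 4 p53−/− arrays in the order of time. The 3 treated p53+/+ arrays stood apart from all others without overlap. TRIM22 was at least 183-, 290- and 216-fold higher in treated p53+/+ than in treated p53−/− cells, and at least 142-, 217- and 163-fold higher than on the array labelled p53+/+ 0 h. Against the p53−/− 0 h array the log2 bounds were 7.23, 7.85 and 7.43. These bounds hold for the background correction in the deposited signal. With normexp background correction they were smaller, at least 54.3-, 84.1- and 55.0-fold between the treated genotypes and at least 55.6-, 83.7- and 60.8-fold from the array labelled p53+/+ 0 h.

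TRIM29, which binds p53 and keeps it out of the nucleus, rose most at 24 and 48 h. In p53+/+ cells its level went from −0.65 on the array labelled 0 h to 2.18, 3.65 and 3.71, whereas p53−/− cells had −0.22, −1.22, −1.11 and −0.45. Every treated p53+/+ array lay above every other array. The fold change from the array labelled p53+/+ 0 h was 7.13, 19.7 and 20.6 at 12, 24 and 48 h (technical SD 0.08 on the log2 scale), and against the p53−/− 0 h array the log2 difference was 2.40, 3.87 and 3.93. In p53−/− cells TRIM29 moved the other way by 1.998-, 1.86- and 1.17-fold, just under the 2-fold rule at 12 h. Treated p53+/+ cells held 10.6, 27.1 and 17.9 times the signal of treated p53−/− cells. Of the 10 basal epithelial markers, 5 were also higher in treated p53+/+ cells at all 3 times and 0 lower, with median log2 differences of 1.32, 1.85 and 1.42, and their part in the TRIM29 values was not tested.

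**Figure D1:**
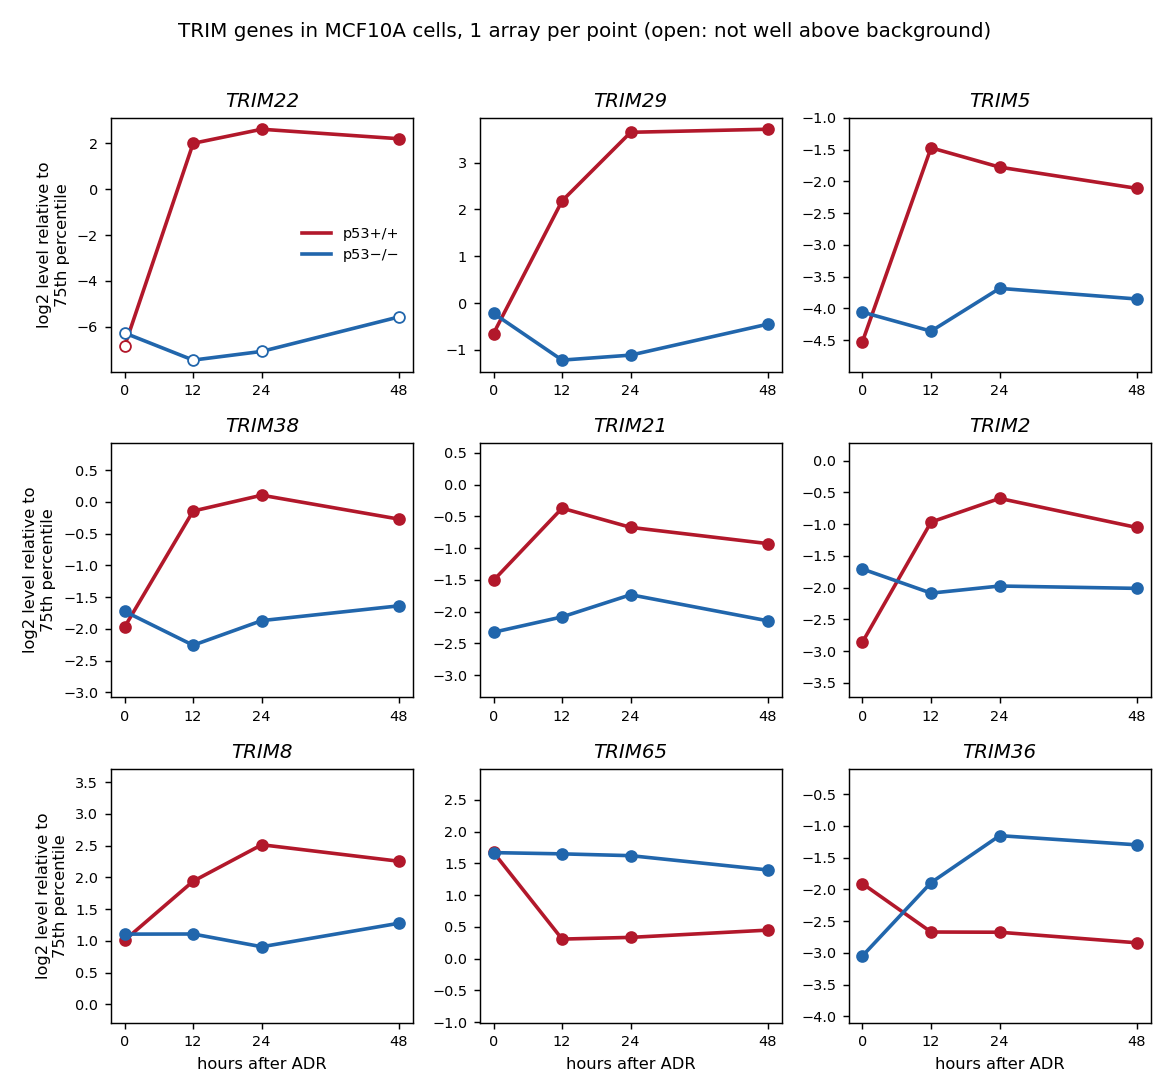
Levels of 9 TRIM genes, as log2 signal relative to the 75th percentile of the array (y axis, with a scale of its own in each panel), at 0, 12, 24 and 48 h after ADR (x axis) in p53+/+ (red) and p53−/− (blue) cells, 1 array per point and open where the probe was not well above background. In treated p53+/+ cells TRIM22 sits at 1.99 to 2.61 and TRIM29 at 2.18 to 3.71, TRIM65 lies below its p53−/− level, and TRIM36 moves apart in opposite directions in the 2 genotypes.

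Of the 10 members known as interferon-induced, 4 (TRIM5, TRIM21, TRIM22 and TRIM38) were higher in treated p53+/+ than in treated p53−/− cells at all 3 times and 0 were lower. Over all genes, 4.89% were higher and 3.83% lower, and the list was chosen with earlier results of these data known. The median log2 difference of the 10 members was 0.73, 0.69 and 1.004 at 12, 24 and 48 h. From the array labelled p53+/+ 0 h, 3 of the 10 (TRIM5, TRIM22 and TRIM38) rose at all 3 times, against 6.29% of all genes risen and 4.27% fallen. Against the p53−/− 0 h array 5 were higher, with TRIM21 and TRIM26 in addition (6.27% of all genes). In p53−/− cells 0 of 10 rose or fell at all 3 times (1.68 and 1.52% of all genes). Of 25 other interferon-stimulated genes, 3 were higher and 3 lower in treated p53+/+ than in treated p53−/− cells at all 3 times. Their median log2 difference was 0.63, 0.25 and −0.64 at 12, 24 and 48 h, with 2 genes not well above background on any array included. From 0 h, 8 of the 25 rose and 2 fell (IFI44 and IFI44L) in p53+/+ cells, whereas 4 rose and 0 fell in p53−/− cells. IFI44L read 1.02 on the array labelled p53+/+ 0 h, then −2.33, −2.96 and −3.30, and 1.49, 1.02, 0.22 and −0.14 without p53. ISG15, a ubiquitin-like modifier, had levels of 0.99, 2.58, 4.35 and 3.15 in p53+/+ cells, against 0.81, 1.06, 2.04 and 3.03 in those without p53. IFIT1, well above background on 7 arrays, read −4.93, −2.17, −1.31 and −3.63 in p53+/+ and −2.36, −3.70, −0.58 and 0.64 in p53−/− cells. MX1 was well above background on 2 arrays. The part of interferon signalling in the TRIM values was not tested.

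TRIM5, the restriction factor that recognises retroviral capsids, read −4.52 on the array labelled p53+/+ 0 h, then −1.47, −1.78 and −2.11, whereas p53−/− cells had −4.06, −4.36, −3.69 and −3.85. The treated p53+/+ arrays were above the other 5 without overlap, and the value was largest at 12 h. Treated p53+/+ cells had 7.40, 3.76 and 3.35 times the signal of treated p53−/− cells. The log2 change from the array labelled p53+/+ 0 h was 3.05, 2.75 and 2.41 (technical SD 0.31 to 0.32), and 2.59, 2.28 and 1.95 against the p53−/− 0 h array.

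TRIM38, a ubiquitin ligase that dampens Toll-like receptor signalling, read −1.97 on the array labelled p53+/+ 0 h, then −0.14, 0.11 and −0.27, and −1.72, −2.26, −1.87 and −1.64 in p53−/− cells. Here too the treated p53+/+ arrays did not overlap with the rest. They were 4.33-, 3.93- and 2.58-fold above treated p53−/− cells. The log2 change from the array labelled p53+/+ 0 h was 1.83, 2.08 and 1.70, and it was 1.58, 1.83 and 1.45 against the p53−/− 0 h array.

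TRIM21, the cytosolic antibody receptor also known as the autoantigen Ro52, read −1.51 on the array labelled p53+/+ 0 h, then −0.37, −0.67 and −0.93, and −2.32, −2.08, −1.73 and −2.14 in p53−/− cells. All 4 p53+/+ arrays lay above all 4 p53−/− arrays, the one labelled 0 h included, where the difference was 0.82 and under 2-fold. After ADR it was 1.71, 1.06 and 1.22 on the log2 scale. The change from the array labelled p53+/+ 0 h reached 2-fold at 12 h (1.14) and not at 24 and 48 h (0.83 and 0.58). TRIM21 was not called with quantile normalization, with normexp or without scaling, where its mean difference of 1.33 became 0.73.

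The other interferon-induced members differed less between the genotypes. TRIM26 was 0.80, 0.99 and 0.91 higher on the log2 scale in treated p53+/+ cells, under 2-fold at each time, and changed by 0.51, 0.50 and 0.54 in p53−/− cells. TRIM34, next to TRIM22 on the chromosome, rose from the array labelled p53+/+ 0 h by 1.39 and 1.30 at 12 and 24 h and changed by 0.47 at 48 h, but differed from treated p53−/− cells by 0.67, 0.25 and −0.06. Its 0 h levels were −4.22 (p53+/+) and −3.35 (p53−/−), and against the latter array its differences were 0.52, 0.43 and −0.40. A second TRIM34 probe, not well above background in p53+/+ cells at 48 h, gave measured differences between the treated genotypes of 0.55, −0.12 and −1.66. Its change from the array labelled p53+/+ 0 h at 48 h was −0.86. TRIM14, a mitochondrial adaptor of antiviral signalling that lacks a RING domain, differed by −0.59, −0.22 and 1.09 and passed 2-fold at 48 h alone, where its other 3 probes gave 0.51, 1.40 and 0.61. TRIM25, which activates the RNA sensor RIG-I, differed by −0.05, 0.39 and 0.51. TRIM56, another ligase of antiviral signalling, differed by −0.28, −0.30 and −0.45, and TRIM69 by 0.04, −0.23 and 0.40. None of these last 3 reached 2-fold in any of the 9 differences made per gene, which are 3 times in each of 3 comparisons.

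**Figure D2:**
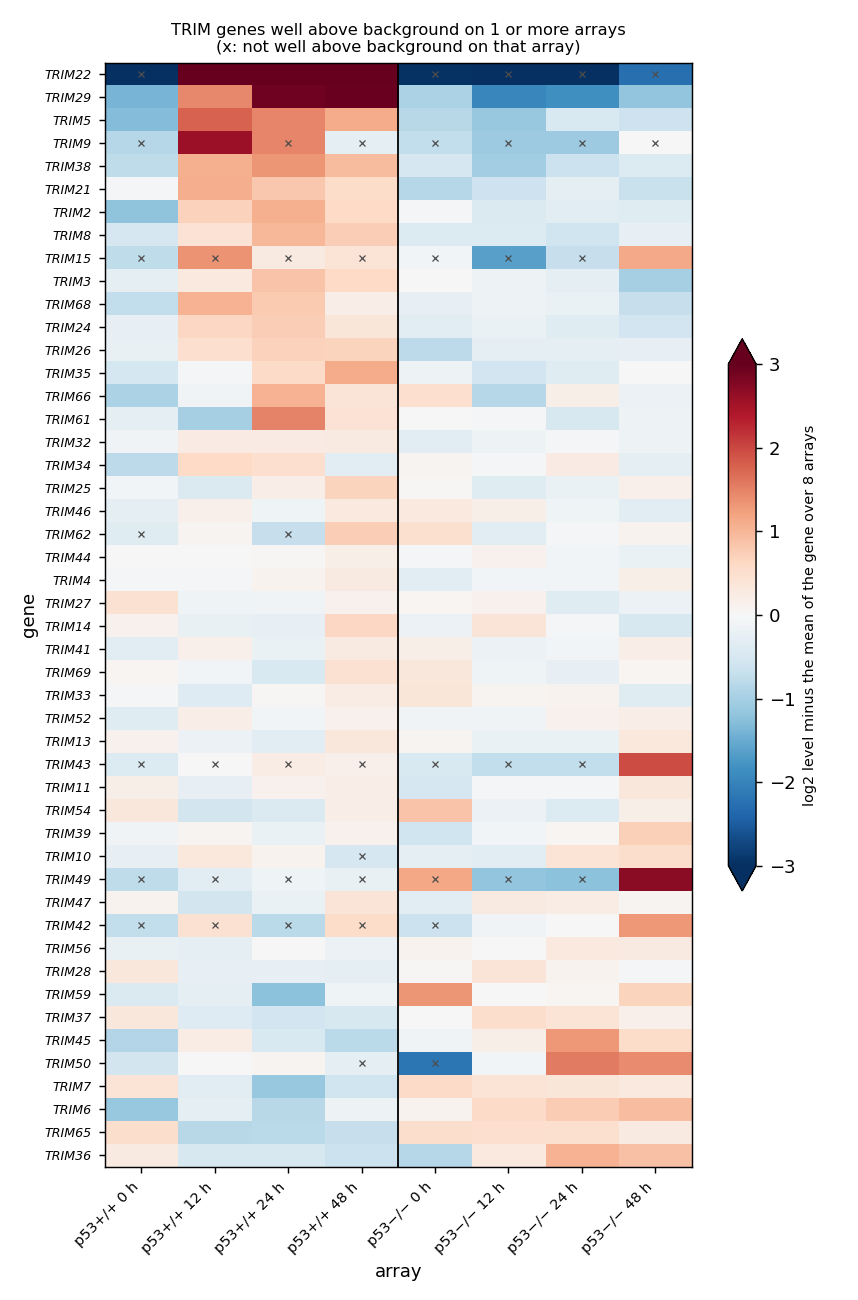
Level of the 48 TRIM genes that were well above background on at least 1 array (rows), on the 8 arrays (columns), as log2 level minus the mean of the gene over 8 arrays, with colours capped at 3 and crosses where the probe was not well above background. The rows are ordered by the mean difference between the treated genotypes, so that TRIM22, TRIM29 and TRIM5 stand at the top and TRIM65 and TRIM36 at the bottom, and most rows between them are pale.

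Of the 10 members linked to p53 as its regulators or targets, TRIM22 and TRIM29 were higher in treated p53+/+ cells at all 3 times and 0 were lower, against 4.89 and 3.83% of all genes. The median log2 difference of the 10 was 0.28, 0.35 and 0.47. TRIM8, which stabilises p53, read 1.01 on the array labelled p53+/+ 0 h, then 1.94, 2.51 and 2.25, and 1.10, 1.11, 0.91 and 1.28 in p53−/− cells. Its treated p53+/+ arrays lay above all others, and the difference passed 2-fold at 24 h (1.61) and not at 12 and 48 h (0.83 and 0.98). From the array labelled p53+/+ 0 h TRIM8 changed by 0.93, 1.50 and 1.25.

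TRIM24, a bromodomain protein that marks p53 for degradation, read 1.56 on the array labelled p53+/+ 0 h, then 2.44, 2.54 and 2.17, and 1.50, 1.62, 1.45 and 1.23 in p53−/− cells. Its treated p53+/+ arrays were the 3 highest, with differences of 0.82, 1.09 and 0.94, of which only that at 24 h reached 2-fold. TRIM28, the corepressor KAP1 that works with MDM2 against p53, differed by −0.62, −0.34 and −0.24, and TRIM32 by 0.40, 0.30 and 0.42. TRIM13, a ligase of the endoplasmic reticulum membrane, differed by 0.01, −0.14 and 0.03, and TRIM39 by 0.15, −0.26 and −0.59. TRIM28, TRIM32 and TRIM13 stayed under 2-fold in all 9 differences, and TRIM39 changed by 1.32 at 48 h in p53−/− cells, against 0.40 with its second probe. A second probe of TRIM13 gave a mean difference of the opposite sign, with 0.62, 0.14 and 0.34 at the 3 times.

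TRIM59, a ligase anchored in the endoplasmic reticulum membrane, was the member with the largest difference at 0 h among the 5 called there. Its level was −2.12 for p53+/+ and −0.37 for p53−/− cells at 0 h, which is 3.37-fold lower in the former. After ADR it read −1.97, −2.92 and −1.83 in p53+/+ and −1.70, −1.63 and −1.02 in p53−/− cells. The p53−/− 0 h array was thus the highest of all 8. TRIM59 fell from it by 1.33 and 1.26 on the log2 scale at 12 and 24 h in p53−/− cells and changed by −0.65 at 48 h, whereas the change from the array labelled p53+/+ 0 h was 0.15, −0.80 and 0.29.

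From the array labelled p53+/+ 0 h, 5 of 64 TRIM genes rose at all 3 times in p53+/+ cells (7.81%, against 6.29% of all genes) and 1, TRIM65, fell (4.27% of all genes). The risen genes were TRIM2, TRIM5, TRIM22, TRIM29 and TRIM38. The median log2 change of the members was 0.41, 0.35 and 0.54 and that of all genes 0.20, 0.14 and 0.34. These medians also include genes not well above background on any array, for which the value compares background signals only. TRIM5, TRIM22, TRIM29 and TRIM38 met this rise and the difference between the treated genotypes together (4.1% of all genes), and all 4 were also higher than on the p53−/− 0 h array at all 3 times (3.56% of all genes). These comparisons share the treated p53+/+ arrays. Measured from the p53−/− 0 h array, 6 members were higher at all 3 times (TRIM5, TRIM21, TRIM22, TRIM26, TRIM29 and TRIM38) and 2 lower (TRIM59 and TRIM65), against 6.27 and 4.53% of all genes.

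TRIM2, an NHL-domain ligase known from neurons, read −2.86 on the array labelled p53+/+ 0 h, then −0.97, −0.60 and −1.05, and −1.71, −2.09, −1.98 and −2.01 in p53−/− cells. The array labelled p53+/+ 0 h was the lowest of all 8 and the treated p53+/+ arrays the highest. The rise from it was 3.70-, 4.80- and 3.49-fold, but TRIM2 was 2.22-fold lower there than on the p53−/− 0 h array, against which the log2 differences were 0.74, 1.11 and 0.65. Between the treated genotypes the difference was 1.12, 1.38 and 0.96, so that TRIM2 missed the rule at 48 h and met it when only 12 and 24 h were used.

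TRIM65, a ligase of the RNA sensor MDA5, was the member that fell in p53+/+ cells. It read 1.67 on the array labelled p53+/+ 0 h, then 0.31, 0.33 and 0.45, and 1.67, 1.65, 1.62 and 1.40 in p53−/− cells. The treated p53+/+ arrays were the 3 lowest, and the 2 arrays of 0 h were equal to 2 decimals. The fall was 2.58-, 2.53- and 2.34-fold (technical SD 0.11 on the log2 scale), and the log2 difference from the p53−/− 0 h array was −1.36, −1.33 and −1.22. Against treated p53−/− cells TRIM65 was 2.54- and 2.44-fold lower at 12 and 24 h and 1.93-fold lower at 48 h, just outside the rule. With quantile normalization, median scaling or no scaling it was lower at all 3 times.

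Other members lower in treated p53+/+ cells passed 2-fold at some times. TRIM6 differed by −0.87, −1.60 and −1.08 on the log2 scale and TRIM7, which binds the glycogen primer glycogenin, by −0.73, −1.51 and −0.90. A second TRIM7 probe gave −1.02, −0.93 and −0.01. TRIM6 was also 2.35-fold lower on the array labelled p53+/+ 0 h than on the p53−/− 0 h array, and it changed from the former by 0.84, 0.30 and 0.98. TRIM45, a filamin-domain member, differed by 0.03, −1.77 and −1.37. In the same arrays 13 of 15 proliferation genes were lower in treated p53+/+ than in treated p53−/− cells at all 3 times and 0 higher, and their median difference was −1.61, −1.87 and −6.33 at 12, 24 and 48 h. Their part in the TRIM values was not tested.

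**Figure D3:**
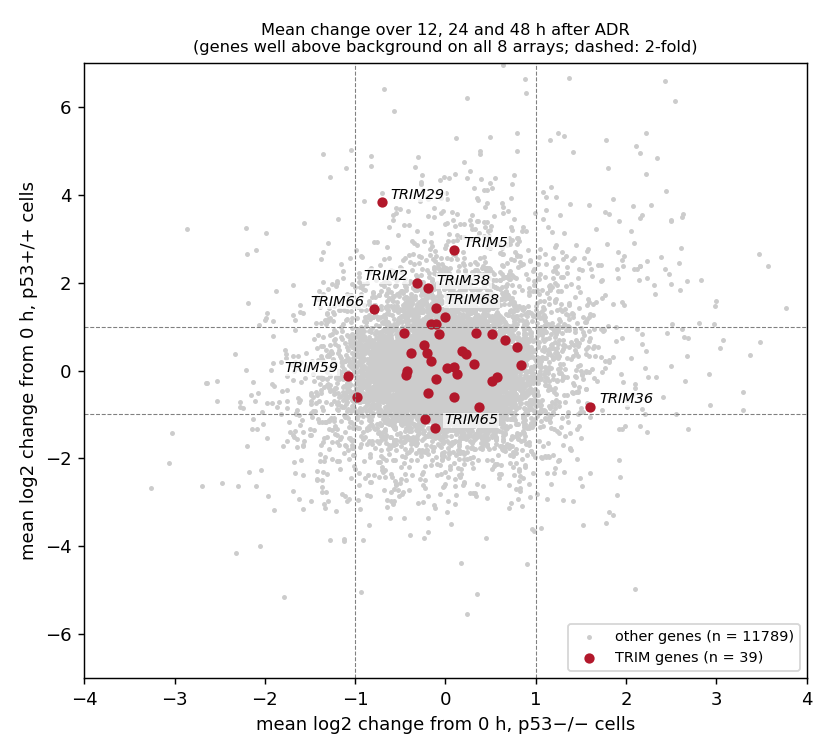
Mean log2 change over 12, 24 and 48 h after ADR from the p53−/− 0 h array in p53−/− cells (x axis) and from the array labelled p53+/+ 0 h in p53+/+ cells (y axis), for genes well above background on all 8 arrays, with 39 TRIM genes in red and 11781 other genes in grey (8 others lie outside the axes) and dashed lines at 2-fold. TRIM29 and TRIM5 lie high near the middle of the x axis, TRIM36 is the only red point past 2-fold to the right, and most red points lie inside the dashed box.

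In p53−/− cells 1 member, TRIM36, rose from 0 h at all 3 times (1.56% of members, against 1.68% of all genes) and 0 fell (1.52% of all genes). The median log2 change of the members was −0.12, −0.17 and 0.11 and that of all genes −0.10, −0.06 and 0.01, again with genes not well above background included. TRIM36, a microtubule-binding COS-box member, was printed in 10 spots per array. It read −3.05 at 0 h in p53−/− cells, then −1.89, −1.15 and −1.30, and −1.91 on the array labelled p53+/+ 0 h, then −2.67, −2.67 and −2.84. The rise in p53−/− cells was 2.22-, 3.72- and 3.36-fold (technical SD 0.06 on the log2 scale). In p53+/+ cells the change had the opposite sign and was under 2-fold, at −0.76, −0.77 and −0.93. The array labelled p53+/+ 0 h was 1.14 above the p53−/− 0 h array, and from the latter treated p53+/+ cells differed by 0.38, 0.37 and 0.21. A second TRIM36 probe, for another transcript, was not well above background on any array, and with the mean of both probes or with normexp TRIM36 was not called.

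TRIM50 rose by at least 2.47 and 2.33 on the log2 scale at 24 and 48 h in p53−/− cells, from a level not well above background at 0 h. A second TRIM50 probe, for the same transcript, was not well above background on any array, so the rise was seen with 1 probe only. TRIM54, a muscle RING-finger member, fell there by 1.02 and 1.25 at 12 and 24 h and changed by −0.67 at 48 h. TRIM37, which guards centrosome number, read 0.47 on the array labelled p53+/+ 0 h, then −0.26, −0.45 and −0.36, and 0.10, 0.63, 0.53 and 0.26 in p53−/− cells. No change of TRIM37 from either 0 h array reached 2-fold. A second, dimmer TRIM37 probe, also well above background everywhere, read −1.07, −1.17, −1.82 and −1.40 in p53+/+ and −0.98, −1.12, −1.26 and −1.75 in p53−/− cells. With that probe all treated values lay below 0 h in both genotypes, so the opposite movement was seen with 1 of the 2 TRIM37 probes.

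At 0 h, TRIM36 was at least 2-fold higher on the array labelled p53+/+ (1 of 64 members, 2.24% of all genes) and TRIM2, TRIM6, TRIM59 and TRIM66 were lower (4 of 64, 2.92% of all genes). TRIM66, a chromatin-binding PHD-bromodomain member, was 2.76-fold lower there. Its later rise of 0.85, 1.99 and 1.35 from that array became −0.62, 0.53 and −0.12 against the p53−/− 0 h array. Of the 5 members called between the treated genotypes, TRIM22 had, on the array labelled p53+/+ 0 h, a signal not well above background. There TRIM29 and TRIM38 lay inside the range of the 4 p53−/− arrays, TRIM5 lay below it and TRIM21 above it.

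By time, 8, 10 and 8 members were higher in treated p53+/+ cells at 12, 24 and 48 h (8.58, 9.11 and 11.8% of all genes) and 1, 7 and 6 were lower (6.17, 8.02 and 9.08% of all genes). In all, 23 of 64 members (35.9%) were called at 1 or more times in either direction, against 28.4% of all genes. TRIM68 was 1.19, 0.99 and 0.89 higher on the log2 scale, so that 12 h alone passed. TRIM35 differed by 0.53, 0.92 and 1.12 and TRIM3, an NHL-domain member, by 0.46, 1.15 and 1.59. A second TRIM3 probe, for the same transcript, was well above background on 6 arrays and gave measured differences of 1.24, 1.44 and 1.26. TRIM68 rose most at 12 h from the array labelled p53+/+ 0 h (1.78, 1.54 and 0.95), whereas TRIM35 rose most at 48 h (0.47, 1.09 and 1.63).

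Some 39 of the 64 members (60.9%) were well above background on all 8 arrays, against 58.3% of all genes. A further 9 were so on 1 to 7 arrays (14.1 against 19.6%) and 16 on none (25.0 against 22.1%). The 16 were TRIM17, TRIM23, TRIM31, TRIM40, TRIM48, TRIM49D1, TRIM51, TRIM55, TRIM58, TRIM60, TRIM63, TRIM64, TRIM67, TRIM71, TRIM72 and TRIM77. They include the muscle members TRIM55, TRIM63 and TRIM72, whereas TRIM54, also a muscle member, was well above background on all 8 arrays (−4.25 to −2.85). Several others of the 16, such as TRIM48, TRIM51 and TRIM64, have near-identical copies that a probe may not separate. Of the 39 seen on all arrays, 14 (35.9%) lay higher and 8 (20.5%) lower in treated p53+/+ cells at all 3 times by any size, against 37.3 and 28.7% of the 11828 genes seen on all arrays. Some 17 of the 39 (43.6%) stayed under 2-fold in all 9 differences, against 50.8% of those genes. The 17 were TRIM4, TRIM11, TRIM13, TRIM25, TRIM26, TRIM27, TRIM28, TRIM32, TRIM33, TRIM37, TRIM41, TRIM44, TRIM46, TRIM47, TRIM52, TRIM56 and TRIM69. They hold the 5 members with the brightest probes, TRIM25, TRIM27, TRIM28, TRIM41 and TRIM47. TRIM47, for example, had levels of 4.47, 3.80, 4.15 and 4.74 in p53+/+ cells, which overlap with the 4.04, 4.64, 4.59 and 4.45 of p53−/− cells.

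By the domain at the end of the protein, 4 of 34 SPRY members (TRIM5, TRIM21, TRIM22 and TRIM38) and 1 of 8 members with no further domain (TRIM29) were higher in treated p53+/+ cells at all 3 times, against 4.89% of all genes. The count was 0 in the 4 PHD-bromodomain, 4 NHL, 7 COS-box, 2 transmembrane and 3 other single-domain members (MATH, ARF and filamin). At that share a count of 0 is the usual one in classes so small, so the classes cannot be told apart by these counts. The median log2 difference at 12, 24 and 48 h was 0.64, 0.33 and 0.30 in the SPRY class, 0.43, 0.72 and 0.69 in the NHL class and 0.13, 0.40 and 0.57 in the PHD-bromodomain class. These medians include 8 SPRY members and 1 NHL member that were not well above background on any array. Of 8 members with more than 1 probe well above background on all arrays, the probes of 5 gave mean differences of the same sign and those of TRIM4, TRIM13 and TRIM27 opposite signs.

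Chromosome 11 holds 16 of the 64 members, more than any other, and chromosome 6 holds 8. TRIM5, TRIM6, TRIM34 and TRIM22 lie side by side there, with no other protein coding gene between them, among olfactory receptor genes. The difference between the treated genotypes was not alike within this stretch. TRIM5 and TRIM22 were higher in treated p53+/+ cells at all 3 times. TRIM34 was not called at any time in this comparison, and TRIM6 was lower at 24 and 48 h. TRIM6 was already 2.35-fold lower on the array labelled p53+/+ 0 h than on the p53−/− 0 h array. Its log2 changes from 0 h were 0.84, 0.30 and 0.98 in p53+/+ and 0.47, 0.67 and 0.83 in p53−/− cells. TRIM34 rose from the array labelled p53+/+ 0 h by 1.39 and 1.30 at 12 and 24 h. Of the 5 members called at all 3 times, 4 lie on chromosome 11 (TRIM5, TRIM21, TRIM22 and TRIM29), TRIM29 as the last in the order, and TRIM38 lies on chromosome 6.

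**Figure D4:**
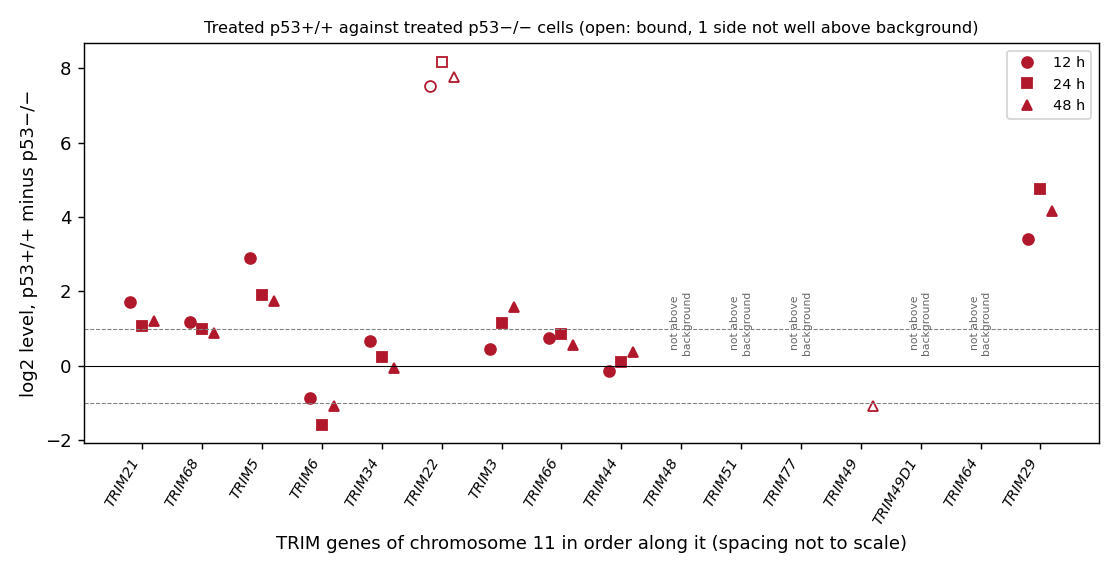
Log2 level in treated p53+/+ minus treated p53−/− cells (y axis) at 12, 24 and 48 h for the 16 TRIM genes of chromosome 11 in their order (x axis, not to scale), with open symbols where 1 side was not well above background and dashed lines at 2-fold. TRIM22 lies above 7 as a bound and TRIM29 between 3.40 and 4.76, whereas TRIM6 and TRIM34, which lie between TRIM5 and TRIM22, sit at −1.60 to 0.67.

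Of 6 relatives under other symbols, 0 were called between the treated genotypes at all 3 times. TRIML2, a TRIM-like protein without RING domain, read −1.57 on the array labelled p53+/+ 0 h, then 1.93, 2.97 and 1.10, and −0.50, −0.85, −0.49 and 0.20 in p53−/− cells. The treated p53+/+ arrays were the 3 highest, and the difference from treated p53−/− cells was 2.78, 3.46 and 0.90, so the rule failed at 48 h alone. From the array labelled p53+/+ 0 h TRIML2 rose by 3.50, 4.54 and 2.67, and against the p53−/− 0 h array it was 2.43, 3.48 and 1.60 higher. PML, also called TRIM19, the scaffold of nuclear bodies that recruit p53, differed by 0.67, 0.97 and 0.76. Of the other PML probes, 1 gave 0.94, 1.17 and 1.29 and 1 gave 0.78, 0.94 and 0.94. MID1 and MID2, microtubule-binding ligases, differed by −0.37, 0.42 and −0.62 and by 0.89, 0.67 and 0.42. MEFV, the pyrin of familial Mediterranean fever, differed by 0.45, 0.14 and 0.81, and TRIML1 was not well above background on any array.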

How the data were processed

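The 8 single-colour arrays, 1 per genotype and time, were grouped by the sample labels. The authors deposited the output of Agilent Feature Extraction 10.7.3.1, whose headers name build hg19. The deposited processed signal is an intensity from which this software had already subtracted the background. The series table held the same values (503808 of 503808 equal within a relative tolerance of 1e-05) and was not used further. Outlier spots (233 to 370 per array) were left out, the log2 intensity was centred on the 75th percentile of 58717 non-control spots, and spots of a probe were averaged. Accessions named 27227 of 42391 probes (64.2%) through RefSeq genes of GRCh38.p14, and the brightest probe by mean level stood for a gene. RefSeq promoters carry that build, and no coordinates of hg19 are given.

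With 1 array per condition there was no test, and the array number limits the precision. Members and lists were chosen with earlier results of these data known. Named genes were the members called at all 3 times, all members of the interferon and p53 lists, the relatives under other symbols and the 5 brightest members, and others named in the text were chosen after their values were seen. Of lists outside the family, luminal (1 of 6), leukocyte (0 of 5) and fibroblast and endothelial markers (0 of 5) were higher in treated p53+/+ cells at all 3 times. None of the luminal and leukocyte markers was lower, but 2 of 5 fibroblast and endothelial markers were (COL1A1 and PECAM1), with medians over the list of −1.29, −1.75 and −1.03, and their part in the TRIM values was not tested. Some genes that this rule covers were left out of the text. Software was Python 3.11.15 with numpy 2.4.6, pandas 2.3.3 and matplotlib 3.10.9, and limma 3.58.1 in R 4.3.3 for normexp (offset 50).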

Additional observations from a re-analysis of the deposited data

Results flagged for a closer look

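In 3 of the 39 TRIM genes seen on all 8 arrays, all 3 treated p53+/+ arrays moved one way from the array labelled p53+/+ 0 h and all 3 treated p53−/− arrays the other way from the p53−/− 0 h array, by more than 2 technical SD each. The share of all genes that do so was not computed, so this count cannot be read as a trait of the family. The mean log2 change in p53+/+ minus that in p53−/− cells was 4.54 for TRIM29, −2.42 for TRIM36 and −1.20 for TRIM37. The difference was not tested, since there was 1 array per condition. From the p53−/− 0 h array, treated p53+/+ cells differed by 2.40, 3.87 and 3.93 for TRIM29 and by 0.38, 0.37 and 0.21 for TRIM36, so for TRIM36 the sign of the p53+/+ change turned with the baseline, and for TRIM37 it was −0.36, −0.55 and −0.46. A second TRIM37 probe did not show the opposite movement: its changes were −0.10, −0.75 and −0.33 in p53+/+ and −0.14, −0.28 and −0.77 in p53−/− cells.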

How the results depend on the processing

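The counts were made again under 11 alternatives, of which 12 and 24 h only was chosen after seeing the data. The p53−/− 0 h baseline, 1 of the 11, was used only for the counts of changes in p53+/+ cells. The 85 recomputed values of called members and the relative TRIML2 had no opposite sign. Part of them could not change sign. The mean of probes equals the main value for a gene with 1 probe, and the values at 12 and 24 h had each passed 2-fold already. Of the 5 members higher in treated p53+/+ cells, 2 remained without scaling and 3 with a 3-fold rule. The 0 lower members became 2 with quantile normalization, 4 with median scaling, 5 without scaling, 1 with the mean of probes, 5 with 2 of 3 times and 1 with 12 and 24 h only. The 5 members risen in p53+/+ cells became 10 with 2 of 3 times. The 1 fallen became 4 without scaling, 0 with a 3-fold rule, 2 with 2 of 3 times and 2 with the p53−/− 0 h baseline. In p53−/− cells the 1 risen became 2 without scaling, 0 with normexp, 0 with the mean of probes, 3 with no filter, 0 with a 3-fold rule and 2 with 2 of 3 times, and the 0 fallen became 2 with 2 of 3 times and 2 with 12 and 24 h only. The cause was not tested, but looser rules call more by construction, and scaling shifts the median difference of all genes, which ranged from −0.10 to 0.34 as reported, −0.62 to 0.46 without scaling, −0.10 to 0.10 with median scaling and −0.02 to 0.02 with quantile normalization. No paired analysis was possible because there was 1 array per condition, and genotypes were compared between arrays of the same time. Dim probes limit TRIM22, whose fold is a bound.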
